A study of Mus musculus with 35 samples.

Results

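The 17 saline aortas of a mouse study of 35 arrays were compared with each other across 7, 14 and 28 days of saline delivery, and gene by gene among aortas collected on the same day. They were chosen by their labels, as the samples titled saline at 7 days (6 arrays), 14 days (6 arrays) and 28 days (5 arrays). The other 18 arrays, from mice given angiotensin II, were left out. All 17 donors were male ApoE-/- mice, which lack apolipoprotein E and are prone to high plasma cholesterol and atherosclerosis. Each received a subcutaneous Alzet osmotic minipump filled with saline vehicle, implanted under isoflurane at 12 to 14 weeks of age, and 1 whole suprarenal aorta went onto each array after perfusion and flash-freezing. Every donor therefore carried the ApoE deletion, the pump and the surgery, and the labels tell the 3 groups apart by how long the pump had been in place and, with it, by age. These comparisons address what the vehicle arm alone does over 28 days and how much 1 control aorta differs from the next.

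The suprarenal aorta is a tube of endothelium, contractile smooth muscle and elastic lamellae wrapped in adventitia and, in mice, in thermogenic perivascular fat. Sympathetic ganglia, the adrenal glands, the kidneys, the liver, lymph nodes and the diaphragm lie against it, so a dissected segment can carry more than vessel wall. Its wall cells run their own circadian clock, in which Arntl (BMAL1) with Clock drives the Per, Cry and Nr1d genes and the output factors Dbp, Tef and Hlf, and the Nr1d and Ror receptors act back on Arntl.

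RNA from each aorta was amplified and labelled with Cy5, and a commercial pool of mouse RNA was labelled with Cy3 and hybridised to the same array. Values below are log2 ratios of aorta over that pool unless named otherwise, so a value of 0 is the level of the pool and a step of 1 is a 2-fold difference. A gene was tested where its probe stood well above background in the aorta channel on at least 5 of the 17 arrays, which left 16872 genes. The aorta channel was well above background at 45% to 62.2% of gene spots and the pool at 54.5% to 68.3%. The median correlation of an array with the other 16 was lowest for 28 day replicate 5 (0.784), 28 day replicate 4 (0.826) and 14 day replicate 1 (0.839), and lay between 0.852 and 0.918 for the rest. Nothing in the labels pairs the aortas of different days, and p-values measure the spread between single aortas.

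Markers of the vessel wall were present throughout. Acta2, the smooth muscle actin, was 3.88, 2.66, 3.85, 1.96, 1.13 and 1.46 at 7 days, -0.31, 2.92, 4.35, 2.77, 2.62 and 1.71 at 14 days, and 3.23, 1.23, 2.48, 3.63 and 5.05 at 28 days. The lowest array was 14 day replicate 1 and the highest 28 day replicate 5, and the 3 days overlapped. Myh11, smooth muscle myosin, lay between 3.47 and 6.19, and Pecam1, an endothelial adhesion molecule, between 1.79 and 2.80. Markers of neighbouring tissue were present as well. Ucp1, the uncoupling protein of brown fat, was above background on all 17 arrays, as was Th, the first enzyme of catecholamine synthesis. Lrp2, an endocytic receptor of kidney tubules, was above background on 9 of 17 arrays, the tubule cadherin Cdh16 on 12 and Star, which delivers cholesterol to steroid synthesis in the adrenal cortex, on 11. In such bulk tissue, fewer cells of a type and less RNA per cell cannot be told apart.

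No gene differed between days once the p-values were adjusted. With limma, 0 of 16872 genes passed an adjusted p of 0.05 for any difference among the 3 days, and 294 (1.74%) had an unadjusted p under 0.05. The 14 day against 7 day comparison gave 0 called genes and 293 (1.74%) at an unadjusted p under 0.05, of which 206 (1.22% of all) were higher and 87 (0.516%) lower at 14 days. The 28 day against 7 day comparison gave 0 called genes and 370 (2.19%) at an unadjusted p under 0.05, and the 28 day against 14 day comparison gave 0 and 423 (2.51%) by the same limma fit. These shares are under the 5% that the threshold itself passes when nothing differs, but they rested on single arrays and on the processing. The share for 28 against 7 days was 7.21% without 28 day replicate 2, 3.43% without 7 day replicate 3 and 1.06% without 28 day replicate 5. That for 28 against 14 days was 5.48% without 28 day replicate 2 and 1.63% without 14 day replicate 4, and that for 14 against 7 days 3.38% without 14 day replicate 5. Weighting arrays by their quality gave 8.6%, 9.5% and 4.8% for 14 against 7, 28 against 7 and 28 against 14 days, centring on the median in place of loess 3.66%, 0.936% and 10.4%, and local backgrounds as scanned 2.06%, 11.4% and 15.1%. None of these fits called a gene at an adjusted p of 0.05 in limma.

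The limit of detection was set by the spread between aortas. The median standard error of a difference was 0.18 between 14 and 7 days and 0.19 for both comparisons with 28 days. In data simulated with each gene's own spread for the 28 day against 7 day comparison over 16872 genes, 61.5% of 200 genes set to a log2 change of 1 and 93% of those set to a change of 2 were called. The simulated noise was normal and drawn for each gene apart from the others. In the arrays many genes varied together, so these shares need not hold for the data. The median change over all genes was -0.01 for 14 against 7 days, -0.02 for 28 against 7 days and -0.01 for 28 against 14 days. With each array centred on its median in place of loess these medians were 0.13, -0.13 and -0.27, so small shifts shared by many genes have no fixed zero here.

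The genes with the lowest p-values are given as a description, since none was called. They were picked by p, so a lack of overlap between days partly follows from that choice. The share of all genes without overlap is not given here. Wnt2, a secreted Wnt ligand, had log2 ratios of 1.52, 1.81, 2.01, 1.99, 1.52 and 2.35 at 7 days, 2.40, 2.64, 3.1, 3.16, 2.98 and 2.37 at 14 days, and 2.28, 2.51, 2.11, 2.09 and 2.02 at 28 days. Every 14 day aorta lay above every 7 day aorta, and the 28 day aortas overlapped both. The 14 minus 7 day difference was 0.91 (SE 0.17), with a limma p of 7.27e-05 and an adjusted p of 0.9999.

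Calcrl, the shared receptor subunit for CGRP and adrenomedullin, was 2.80, 2.55, 2.82, 2.55 and 2.52 at 28 days and 2.19, 2.06, 2.39, 1.32, 1.04 and 1.92 at 7 days. No 28 day aorta overlapped the 7 day range, and the 14 day aortas, at 1.96 to 2.73, spanned the gap. The 28 minus 7 day difference was 0.83 (SE 0.22; limma p 0.00158, adjusted p 0.9984). Cyp2d22, a cytochrome P450, averaged 1.55 ± 0.44 at 28 days (SD, n = 5) and 2.64 ± 0.16 at 14 days (SD, n = 6), with no overlap between the 2 days and a limma p of 0.000433. Dnajb2, an HSP40 co-chaperone, averaged 0.83 ± 0.26 at 28 days and 1.46 ± 0.18 at 14 days, and Xrcc1, a scaffold of DNA strand-break repair, -1.07 ± 0.16 and -0.70 ± 0.09 (SD, n = 5 and 6 in that order). Neither gene's 28 day aortas overlapped its 14 day aortas.

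Dnajc3 and Creld2 were among the genes of lowest p between 14 and 7 days. Dnajc3, a co-chaperone of the endoplasmic reticulum, was 0.46, 0.18, 0.26, 0.77, 0.47 and 0.62 at 7 days, 1.03, 1.07, 1.13, 1.45, 0.67 and 0.92 at 14 days, and 0.42, 0.56, 0.48, 0.54 and 0.42 at 28 days. The 14 day aortas were the highest apart from replicate 5, which lay inside the 7 day range. Creld2, a secretory pathway protein known as a stress gene of that compartment, averaged -2.25 ± 0.35 at 7 days, -1.22 ± 0.52 at 14 days and -2.04 ± 0.34 at 28 days (SD, n = 6, 6 and 5). Its 14 day aortas, at -1.85 to -0.57, lay just above the 7 day aortas, at -2.76 to -1.87. The limma p-values were 0.000256 for Dnajc3 and 0.00033 for Creld2 between 14 and 7 days, with an adjusted p of 0.9999 for both.

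Of 13 tested genes in a list of heat shock chaperones, 8 were higher at 14 than at 7 days at an unadjusted p under 0.05, against 1.22% of all genes, and the list's median difference was 0.47 against -0.01 over all genes. Hspa1a, the inducible HSP70, whose near-identical copy Hspa1b its probe may also read, was 2.54, 3.93, 5.10, 4.97, 2.92 and 2.87 at 14 days and 2.82, 2.44, 3.12, 2.44, 2.22 and 2.13 at 7 days. At 14 days replicates 2, 3 and 4 stood above every 7 day aorta and the other 3 overlapped them. Hspa5 (BiP, the chaperone of the endoplasmic reticulum), Hsph1, Dnajb1, Dnaja1, Hspa8, Chordc1 and Bag3 made up the 8, with differences of 0.38 to 0.85, while Hspd1, Hspe1 and Hspb1 had -0.02, 0.07 and -0.12. About the day means, another probe of Dnajb1 had r 0.281 with the one used, against 0.885 for Hspa8 and 0.747 to 0.942 for Hspa1a. Between 28 and 14 days the list's median was -0.35, and 4 of 13 genes were lower at an unadjusted p under 0.05, against 1.5% of all genes. The 14 against 7 day count was 5 to 8 over other scalings of the arrays. It was 4 without 14 day replicate 4 or 7 day replicate 3, 5 without 14 day replicate 6 or 7 day replicate 6, and the 28 against 14 day count was 2 without 14 day replicate 4 or 28 day replicate 1.

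Kidney tubule genes stood higher at 14 days in some of the aortas. Of 10 tested, 5 were higher at 14 than at 7 days at an unadjusted p under 0.05 (1.22% of all genes), with a list median of 0.97. Kap, an androgen-regulated protein of the proximal tubule, was 1.61, 2.24, 2.07, 1.09, 0.15 and 0.01 at 7 days, 2.38, 6.69, 5.99, 5.72, 0.15 and 1.89 at 14 days, and 3.31, 5.50, 0.97, 0.09 and 5.03 at 28 days. The high aortas were 14 day replicates 2, 3 and 4 and 28 day replicates 2 and 5. The value of 3.31 in 28 day replicate 1 lay between these and the 7 day range, and the rest overlapped that range or lay near it. Lrp2 was not well above background on any of the 6 arrays at 7 days and was above it on 5 of 6 at 14 days and 4 of 5 at 28 days. It thus passed the filter of at least 5 arrays only on days where it was high. Its place among the 5 is a description and not support for a rise. Its aorta signal was at least 2.73-fold higher at 14 than at 7 days and at least 1.66-fold higher at 28 than at 7 days, a bound set by the lowest signal that counted as above background (adjusted p in the limma fit 0.9999 and 0.9984). The count of 5 was 1 without any one of 14 day replicates 2, 3 or 4, and 3 without 7 day replicate 5 or 6. The phosphate transporter Slc34a1, Cdh16 and the anion transporter Slc22a6 completed the 5, and the water channels Aqp1 and Aqp2 had differences of -0.18 and 0.14. About the day means, another probe of Slc22a6 had r 0.182 with the one used, and another of Lrp2 0.857.

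Pancreas enzymes ran the other way. Clps, the cofactor of pancreatic lipase, and Cela3b, a pancreatic elastase, were each above background on 5 of 6 arrays at 7 days. At 14 days neither was above it on any array, and at 28 days Clps was above it on 0 and Cela3b on 1 of 5. The 7 day signal was at least 1.39-fold higher than that at 14 days for Clps and at least 1.68-fold higher for Cela3b (adjusted p 0.9999 for both in limma). They were the 2 of 6 tested genes of an acinar pancreas list that were lower at 14 days at an unadjusted p under 0.05, against 0.516% of all genes. Testing required at least 5 arrays above background, and both genes reached that number on the 7 day arrays alone. The filter thus let them in where they were high, so this count is a description and not support for a fall.

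Macrophage genes had positive medians at both later days. Of 28 tested, 5 were higher at 14 than at 7 days and 6 at 28 than at 7 days at an unadjusted p under 0.05, against 1.22% and 1.08% of all genes, with list medians of 0.48 and 0.38. Mrc1, the mannose receptor of resident macrophages, averaged 4.07 ± 0.60 at 28 days (SD, n = 5) and 3.26 ± 0.46 at 7 days (SD, n = 6), and Adgre1 (F4/80) 0.05 ± 0.71 and -0.62 ± 0.40 in the same order. Ranges overlapped for both genes. The 28 against 7 day count was 1 without 28 day replicate 4, 2 without 28 day replicate 5 or 7 day replicate 5 and 1 with median centring. The 14 against 7 day count was 1 to 9 with 1 aorta left out, so both counts rested on single aortas. Of 26 genes of TGF-beta and BMP signalling, 4 were higher at 28 than at 7 days at that threshold (Bmpr1a, Smad7, Skil and Smad4), with a median of 0.21, and 0 to 5 with 1 aorta left out. These are values of single probes. About the day means, other probes of Smad4, Skil and Bmpr1a had r of -0.101, 0.128 and 0.600 with the probe used.

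Lists of the vessel wall and its matrix held few genes below the unadjusted threshold. None of 18 endothelial genes and none of 27 cell cycle genes reached it in any of the 3 comparisons. Of all genes 1.74%, 2.19% and 2.51% did, shares at which lists of this size can hold none. The counts also depended on the processing. With local backgrounds as scanned, 5 endothelial genes were lower at 28 than at 7 days and 6 lower at 28 than at 14 days. In the same comparisons 12 and 14 cell cycle genes were higher, where 11.4% and 15.1% of all genes reached the threshold in either direction. With median centring 6 cell cycle genes were lower at 28 than at 14 days, where 10.4% of all genes reached it in either direction. Of 20 contractile smooth muscle genes only Pln, phospholamban, reached the threshold, at -1.5 between 28 and 14 days, where 1.5% of all genes were lower. The contractile list's median was 0.29 between 28 and 7 days and 0.41 between 28 and 14 days (0.10 and 0.07 with median centring), and -0.11 between 14 and 7 days (0.09 with median centring). Of 20 collagens 1 was lower at 14 than at 7 days, against 0.516% of all genes, although the list's median was 0.27 between these days and 0.48 between 28 and 7 days. Of 15 elastic fibre genes 1 was higher at 14 and 1 at 28 than at 7 days, against 1.22% and 1.08% of all genes, with list medians of 0.25 and 0.44. Of 24 matricellular proteins and proteoglycans 1 was higher in each of the same comparisons, with medians of 0.26 and 0.67. Between 28 and 14 days the medians of these 3 matrix lists were 0.19, 0.17 and 0.26, and -0.12, -0.14 and -0.16 with median centring. The heat map of list levels shows how far the same lists differed between aortas of 1 day.

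**Figure D1:**
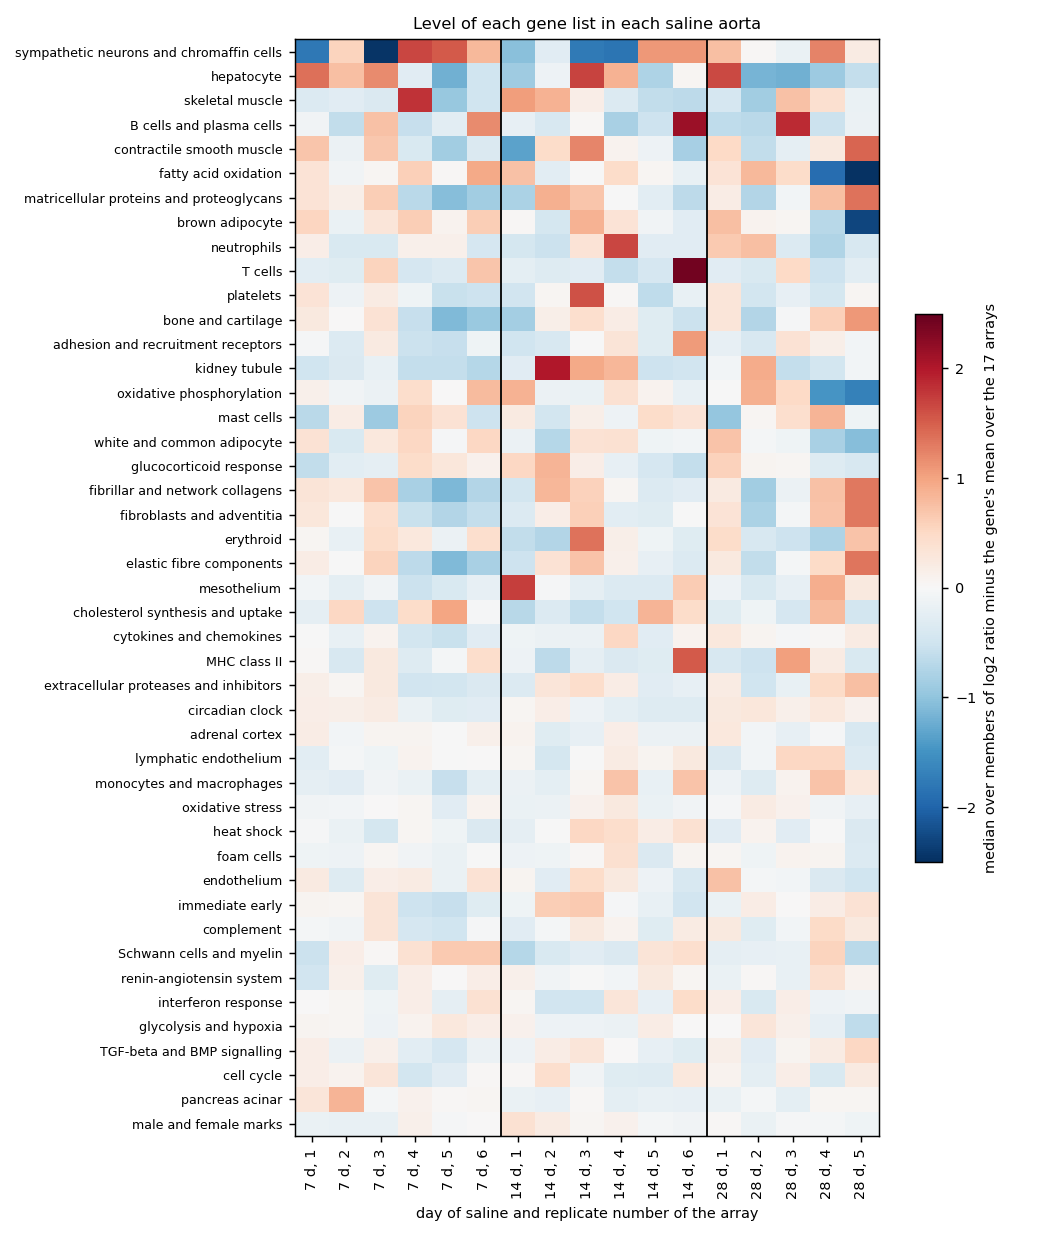
Level of each gene list (rows) on each of the 17 saline arrays (columns, grouped by day), as the median over members of the log2 ratio minus the gene's own mean over the 17 arrays. The neuronal and liver lists differ widely between aortas of 7 days and of 14 days, and the fat and mitochondrial lists are low in 28 day replicates 4 and 5.

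The spread between aortas of 1 day was wide for some genes and narrow for most. The residual SD of the log2 ratio about the day means had a median of 0.31 over 16872 genes, with quartiles of 0.22 and 0.49, and 791 genes (4.69%) exceeded 1. By day the median SD was 0.27 at 7 days, 0.29 at 14 days and 0.35 at 28 days. Repeat spots of 245 probes printed 10 times on each array had a median SD of 0.106 to 0.203 over the arrays, below the median spread between aortas. Among 11964 genes above background in both channels of all arrays, the aorta channel's SD exceeded that of the pool's channel in 99.5%, with medians of 0.33 and 0.08.

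The 5 genes of smallest spread are given as a description. Nup50, a nuclear pore protein, lay between -1.16 and -0.88 on the 17 arrays, with a residual SD of 0.081. Trp53rka, a kinase of the tRNA-modifying KEOPS complex, had the lowest SD, 0.054, and its probe may not tell it from its near-identical copy Trp53rkb. It was followed by Gatad2a of the NuRD complex at 0.075, the ribosome factor Efl1 at 0.075 and Ccdc130 at 0.080. The ranking is one of single probes. Other probes of Nup50 had residual SDs of 0.202 and 0.182, and another of Gatad2a 0.156.

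**Figure D2:**
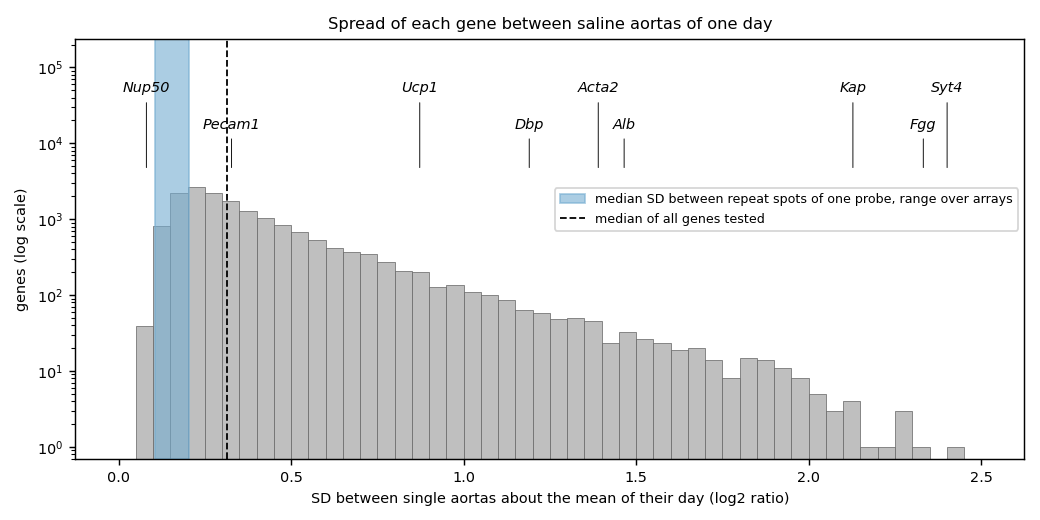
Distribution over the tested genes of the residual SD of the log2 ratio between aortas of 1 day, with named genes marked. The quartiles are 0.22 and 0.49, while Syt4 at 2.40 lies at the far end and Nup50 at 0.081 near the lower one.

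Lists differed widely in this spread. Genes of sympathetic neurons and chromaffin cells had the highest median SD, 1.47, and 14 of 18 tested exceeded 1, against 4.69% of all genes. Liver genes followed with a median of 1.25 (8 of 13 over 1), then skeletal muscle with 1.06 (8 of 15), B cells with 0.96 (4 of 10), contractile smooth muscle with 0.95 (8 of 20), fatty acid oxidation with 0.92 (6 of 20) and matricellular proteins with 0.90 (9 of 24). Brown adipocyte genes had a median of 0.87 (4 of 15), and oxidative phosphorylation genes 0.73 (2 of 31). At the low end, endothelial genes had a median of 0.48 and cell cycle genes 0.35, with none over 1 among 18 and 27.

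The 200 genes of largest SD among those above background on at least 12 arrays were grouped by their correlation over the arrays. The correlation was taken about the day means (r above 0.7), which placed 184 genes in 3 sets. The grouping used these same values, so the sets are a description. The first held 145 genes led by Syt4, Slc10a4 and Zcchc12, with a median pairwise r of 0.96. Of these, 9 are on the list of sympathetic neuron and chromaffin genes. Genes known from neurons and neuroendocrine cells among the members are Snap25 and Syt1 of the vesicle fusion machinery, the monoamine transporters Slc18a1 and Slc18a2, the noradrenaline transporter Slc6a2, and the neurofilaments Nefl, Nefm and Nefh.

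Slc10a4, a vesicle protein of monoaminergic and cholinergic neurons, had log2 ratios of 2.55, 7.39, 0.87, 7.84, 7.83 and 7.17 at 7 days, 4.33, 6.39, 3.66, 3.03, 7.76 and 7.35 at 14 days, and 6.71, 6.77, 5.60, 7.77 and 4.97 at 28 days. Aortas at 4.33 or lower occurred at 7 and 14 days, and the lowest at 28 days was 4.97. Its background-subtracted aorta signal was 45 in 7 day replicate 3 and 22242 in 7 day replicate 5. Syt4, a synaptotagmin of secretory vesicles, was lowest in the same 7 day replicate 3 at 0.19 and highest in the same replicate 5 at 6.93.

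The median deviation of the 145 genes was 1.45, 1.78, 2.20 and 0.48 in 7 day replicates 2, 4, 5 and 6 and -2.06 and -2.31 in replicates 1 and 3. At 14 days it was 1.84 and 1.27 in replicates 5 and 6 and between -1.98 and -0.21 in the other 4, and at 28 days 2.00 in replicate 4 and between -0.67 and 0.06 in the others. Agtr1a, the type 1a angiotensin II receptor, was in this set. It was 1.27, 5.52, 1.81, 5.38, 6.23 and 4.41 at 7 days, 3.47, 3.02, 1.96, 2.63, 5.85 and 5.39 at 14 days, and 3.65, 3.95, 2.82, 6.06 and 3.41 at 28 days, a residual SD of 1.69. The list of sympathetic neuron and chromaffin genes, 18 of 18 tested, stood between -2.44 in 7 day replicate 3 and 1.66 in 7 day replicate 4, and its part in the level of Agtr1a was not tested.

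The second set held 31 genes led by Fgg, Ambp, Ces3b and Fabp1 (median r 0.94), of which 4 are on the hepatocyte list. Coagulation factors, serpins, apolipoproteins and major urinary proteins, all known as liver products, were among them, beside transcripts with no gene symbol. Fgg, the fibrinogen gamma chain, was 6.43, 5.54, 5.81, 4.76, 1.09 and 3.26 at 7 days, 1.21, 3.63, 6.49, 6.21, 2.30 and 4.15 at 14 days, and 7.46, 0.77, 0.31, 1.23 and 3.22 at 28 days. Alb, albumin, ran between 0.38 in 7 day replicate 5 and 5.14 in 28 day replicate 1. High aortas occurred on every day, and at 28 days replicate 1 alone was high.

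The third set held 8 genes led by Marco, Iglv1, Cd5l and Ms4a1 (median r 0.86), which are genes of B cells and of macrophages of the spleen and lymphoid tissue. Marco, a scavenger receptor of such macrophages, was 2.15, 1.38, 6.41, 4.12, 2.73 and 5.88 at 7 days, 2.31, 2.61, 3.44, 1.79, 1.60 and 5.91 at 14 days, and 3.36, 0.85, 5.84, 0.85 and 0.55 at 28 days. The set's median deviation was above 1 in 7 day replicates 3 and 6, 14 day replicate 6 and 28 day replicate 3, and at most 0.14 in the other 13 aortas.

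**Figure D3:**
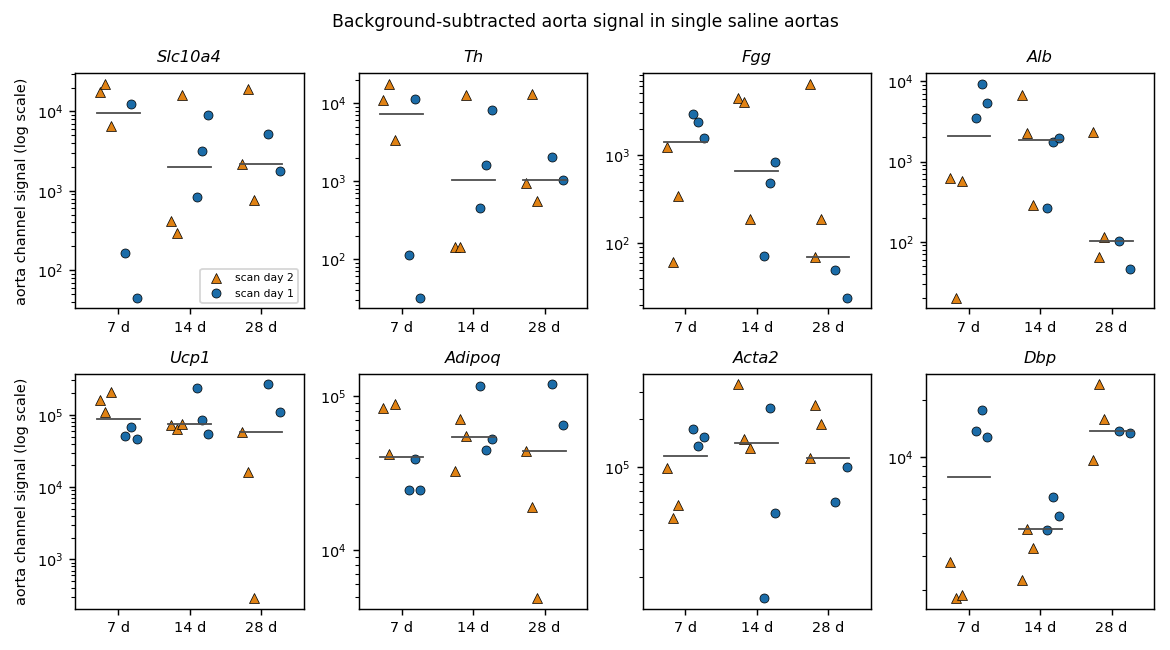
Background-subtracted aorta channel signal (log axis) of 8 genes on each array, by day, with triangles for arrays of scan day 2 left of circles for arrays of scan day 1 and lines at the median of each day. At 7 days Slc10a4 spans 45 to 22242 and Th 32 to 17569, while Acta2 spans 47390 to 173582.

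Fat and mitochondrial genes set 28 day replicates 4 and 5 apart. The oxidative phosphorylation list was at -1.48 and -1.69 in these 2 aortas and between -0.19 and 0.89 in the other 15, and the fatty acid oxidation list at -1.89 and -2.47 against -0.26 to 0.94. Brown adipocyte genes were at -0.69 and -2.29 in the same 2 aortas and between -0.45 and 0.87 elsewhere. Ucp1 was 5.98 to 7.06 at 7 days, 4.81 to 7.14 at 14 days, and 7.41, 6.31, 5.70, 5.60 and 3.91 at 28 days, and its aorta signal was 291 in 28 day replicate 5 and at least 16347 in the other 16 aortas. Slc27a2, a fatty acyl-CoA synthetase, was 3.13 and 1.75 in replicates 4 and 5 and 6.64 to 7.25 in the other 28 day aortas. Aspg, an asparaginase, was 1.03 in replicate 5 against a mean of 5.48 in the other 4, and the fatty acid elongase Elovl6 was -0.74 against 3.18.

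These aortas also set the day medians of the fat lists. Of 15 brown adipocyte genes, 3 were lower at 28 than at 7 days at an unadjusted p under 0.05 (Cox7a1, Cpt1b and Kcnk3), against 1.11% of all genes. Without 28 day replicate 4 or without replicate 5 the count was 0, and it was 7 without replicate 1. The list's median between 28 and 14 days was -0.49, but 0.02 with the scanner software's own log ratio and -0.04 without replicate 5.

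Matrix genes were highest in 28 day replicate 5 and lowest in 7 day replicate 5. The collagen list stood at 1.33 and -1.13 in these 2 aortas, the elastic fibre list at 1.33 and -1.11 and matricellular proteins at 1.36 and -1.06. The contractile list was also highest in 28 day replicate 5, at 1.45, but lowest in 14 day replicate 1, at -1.33. Tagln (SM22), an actin-binding protein of contractile smooth muscle, was -0.20 in that 14 day aorta and 6.45 in 28 day replicate 5.

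Striated muscle genes appeared in single aortas. In 14 day replicate 1, the heart muscle genes Mybpc3 and Tnni3 (cardiac troponin I) were 4.13 and 5.57, against means of -2.36 and 0.69 in the other 5 aortas of that day. Cox6a2, a gene of striated muscle, was 3.56 there against -2.32. Tnni3 was also 4.06 in 14 day replicate 2 and at most 0.56 in the other 15 aortas. In 7 day replicate 4, the fast skeletal muscle genes Myh1, Myh2 and Tnni2 were 4.24, 5.69 and 3.08, against 0.29, 1.76 and -0.73. The skeletal muscle list was highest there, at 1.81.

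Blood and immune genes had their own outlying aortas. In 14 day replicate 3, the platelet genes Ppbp and Gp9 were 6.10 and 4.50, against means of 1.95 and 0.57 in the day's other aortas, and Hba-a1, a globin of red cells, was at its highest of the 17, 5.27. In 14 day replicate 6 the T cell list stood at 2.41 and the B cell list at 2.14, with Ccl5, a chemokine of T and NK cells, at 2.77 against -1.88. In 14 day replicate 4 the monocyte chemokine Ccl7 was 2.04 against -2.60 and Chil3 (Ym1), a product of myeloid cells, 1.34 against -3.16. Spp1, osteopontin, was -2.31 in 14 day replicate 2 against -6.53, the same aorta in which the kidney tubule list was highest, at 2.00. Svs5, a seminal vesicle secretory protein, was 6.34 in 7 day replicate 2 against 1.70.

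The pool's channel moved with the aorta channel for the genes that varied most. For 22 genes with an aorta channel SD over 2, the pool's channel had a median SD of 1.01 although the same RNA went onto every array. About the day means, the 2 channels of these genes correlated over the 17 arrays with a median r of 0.93. For the 9092 genes with an aorta SD of up to 0.5, that SD was 0.08 and the r was 0.30. Th had aorta signals of 32 to 17569 and pool signals of 21 to 2110, and Ucp1 aorta signals of 291 to 265407 and pool signals of 26 to 8485. Their log2 ratios therefore spread less than their aorta signals did, by a residual SD of 1.11 against 2.57 for Th. The cause was not tested.

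**Figure D4:**
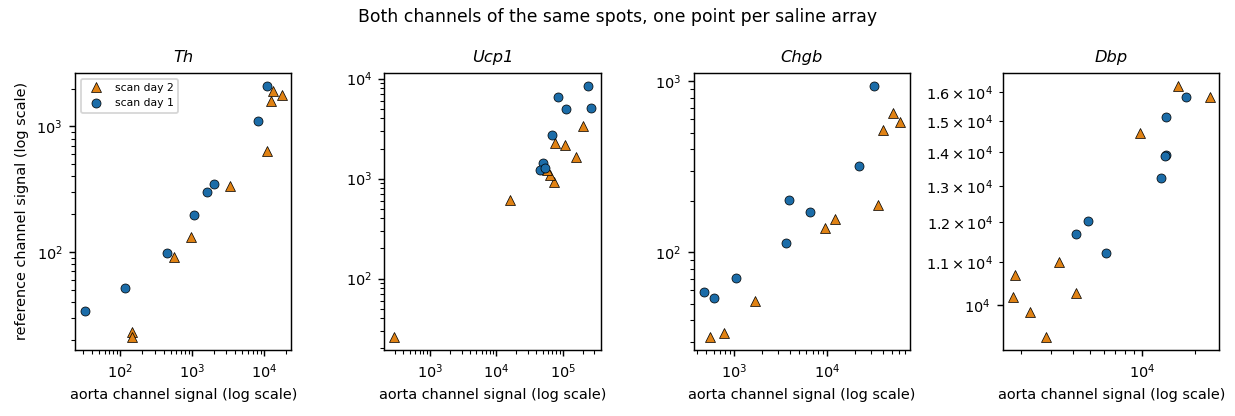
Pool channel signal against aorta channel signal (both background-subtracted, log axes) on the 17 arrays for Th, Ucp1, Chgb and Dbp. The pool's signal climbs with the aorta's for Th, Ucp1 and Chgb, and over a narrower range for Dbp. For Dbp it is 9322 to 12035 on arrays with aorta signals of 1807 to 6176. It is 13228 to 16210 on those with aorta signals of 9739 to 24367.

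Across the 17 arrays, 14 pairs of marker genes were correlated on the log2 ratios after each gene's day mean was taken off. The p-values came from permutation within days and were adjusted by Benjamini-Hochberg over the 14. At 0.05, 6 pairs passed, of which 5 are described. Alb and Apoa1, both of liver, had Pearson's r of 0.84 and Spearman's rho of 0.88 (permutation adjusted p 0.00028), 0.84 without the 2 arrays farthest from the median, and 0.80 and 0.77 within scan days 2 and 1. Chgb, a chromogranin of neuroendocrine granules, and Th had r 0.87 and rho 0.90 (permutation adjusted p 0.00056), 0.84 without 2 arrays, and 0.84 and 0.78 within scan days. With the scanner software's log ratio or the deposited series table the r of this pair was 0.506, which did not pass (permutation adjusted p 0.135). Fos and Egr1, immediate early transcription factors, had r 0.86 and rho 0.80 (permutation adjusted p 0.0007), 0.82 without 2 arrays, and 0.82 and 0.74 within scan days.

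Hba-a1 and Alas2, the haem synthase of red cell precursors, had r 0.86 and rho 0.82 (permutation adjusted p 0.00077), 0.79 without 2 arrays, and 0.98 and 0.40 within scan days 2 and 1. Ucp1 and Acadm, an enzyme of fatty acid oxidation, had r 0.68 and rho 0.52 (permutation adjusted p 0.0322), but 0.38 without 2 arrays. This pair did not pass without 28 day replicate 5 (r 0.435, permutation adjusted p 0.237), without any one of 7 day replicate 2, 14 day replicate 2 and 28 day replicates 2 and 4 (adjusted p 0.0524 to 0.0847), or with the scanner software's log ratio or the deposited series table (r 0.01). Ucp1 with Adipoq, the adipokine of all fat, had r 0.33 (adjusted p 0.366), and 0.89 once 28 day replicate 5 and 14 day replicate 2 were left out. Cdh16 with Lrp2, Ucp1 with Acta2, and the clock pairs Arntl with Dbp and Per3 with Nr1d1 were among the 8 pairs that did not pass.

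Of 22 circadian clock genes tested, 7 were higher and 3 lower at 28 than at 14 days at an unadjusted p under 0.05, against 1.01% and 1.5% of all genes. The 7 were Dbp, Ciart, Nr1d2, Tef, Hlf, Per2 and Per3, with differences of 0.84 to 2.00, and the 3 were Nfil3 at -1.51, Arntl at -1.45 and Npas2, a partner of Arntl like Clock. Npas2 was not above background on any 28 day array and was above it on 4 of 6 at 14 days, so only a bound holds, of at least 1.17-fold lower at 28 than at 14 days (limma adjusted p 0.9996). It passed the filter of at least 5 arrays through 7 and 14 day arrays alone. Its part in the counts of genes lower at 28 days is a description and not support for a fall. Among the differences given, the largest, Dbp at 2.00, had a limma p of 0.00815 and an adjusted p of 0.9996. With 1 aorta left out, the counts of 7 and 3 became 6 to 7 and 2 to 4. Between 28 and 7 days 4 were higher and 2 lower, against 1.08% and 1.11% of all genes, and between 14 and 7 days 2 were higher and 1 lower, against 1.22% and 0.516%.

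The promoters of Ciart, Per3 and Arntl are shown because they hold letter matches to motifs known from the clock or, for Arntl, only to a loose form of one. The capitals mark matches on either strand to an E-box, CACGTG, to a D-box, TTANGTAA, and to a loose form of the ROR element, TNGGTCA. N stands for any base, and the matches to the ROR form shown here have T or C there. Sequences are RefSeq's on GRCm38.p6, 250 bases before the transcription start. Ciart lies at chr3:95882229-95882478 on the minus strand, Per3 at chr4:151044666-151044915 on the minus strand and Arntl, first of the starts listed, at chr7:113207215-113207464 on the plus strand.
Ciart: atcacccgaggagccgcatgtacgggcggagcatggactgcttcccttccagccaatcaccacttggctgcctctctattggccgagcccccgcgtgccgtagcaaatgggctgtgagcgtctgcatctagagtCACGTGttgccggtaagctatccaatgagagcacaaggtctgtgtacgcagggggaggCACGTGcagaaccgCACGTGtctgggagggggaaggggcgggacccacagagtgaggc
Per3: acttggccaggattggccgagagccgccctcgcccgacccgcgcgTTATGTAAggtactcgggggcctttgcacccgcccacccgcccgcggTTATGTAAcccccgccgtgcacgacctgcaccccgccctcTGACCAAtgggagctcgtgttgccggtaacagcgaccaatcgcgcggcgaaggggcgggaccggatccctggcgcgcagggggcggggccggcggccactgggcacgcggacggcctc
Arntl: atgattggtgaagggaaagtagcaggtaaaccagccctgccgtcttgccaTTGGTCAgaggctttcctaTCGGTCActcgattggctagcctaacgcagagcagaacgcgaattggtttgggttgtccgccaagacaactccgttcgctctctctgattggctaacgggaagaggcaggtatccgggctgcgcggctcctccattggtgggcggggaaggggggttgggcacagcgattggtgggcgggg
The Ciart window holds 3 E-boxes, whose first bases lie 116, 58 and 44 bases before the start. The Per3 window holds 2 D-boxes, at 205 and 158 bases, and 1 match to the ROR form at 118. The Arntl window holds 2 matches to the ROR form, at 200 and 181. Of 32851 promoters of the same length, 6.02% held an E-box, 2.06% a D-box and 9.19% a match to the ROR form. Of the 26 promoters listed for 18 of the clock genes, some of which overlap, 6, 1 and 6 did. A match is a description of the letters and not a bound site.

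The 7 day aortas fell into 2 sets in these genes, along the day on which the array was scanned. Arntl was 0.82, 0.68 and 0.91 on the 3 arrays of scan day 2 (replicates 4 to 6) and -1.31, -1.42 and -1.27 on the 3 of scan day 1 (replicates 1 to 3). Dbp, an output factor that binds D-boxes, was -1.40, -1.70 and -1.52 on scan day 2 and 1.80, 1.52 and 1.86 on scan day 1. Neither gene's sets overlapped. Background-subtracted aorta signals of Dbp were 1807 to 2799 on scan day 2 and 12891 to 17744 on scan day 1, and those of Arntl 600 to 809 and 44 to 85 in the same order.

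The scan day comparison was chosen after the data were seen, in a limma fit with a mean for each day and scan day. At 7 days it called 6 of 16872 genes (0.0356%), 2 higher (0.0119%) and 4 lower (0.0237%) on scan day 2, and 2177 genes (12.9%) had an unadjusted p under 0.05. Arntl differed by 2.14 (SE 0.20, limma adjusted p 0.000636), Dbp by -3.27 (SE 0.32, adjusted p 0.000789), Tef by -1.48 (SE 0.18, adjusted p 0.00684) and Nr1d2 by -1.88 (SE 0.29, adjusted p 0.0443). The other 2 were Pcdh20, a protocadherin, at 2.30 (adjusted p 0.0154) and 5033430I15Rik at -1.12 (adjusted p 0.0494). The same contrast called 0 genes with limma at 14 days (703 genes, 4.17%, at an unadjusted p under 0.05) and 0 at 28 days (4242 genes, 25.1%).

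Other members that were not called also differed in their means at 7 days. Means on scan day 2 and scan day 1 were -1.07 and 0.66 for Ciart, a repressor of the Arntl and Clock pair, 0.12 and 1.75 for Per2, -1.12 and 0.03 for Per3, 1.66 and 3.11 for Hlf and 0.49 and -0.97 for Nfil3, a repressor at D-boxes. Csnk1e, a kinase of the PER proteins, had -1.35 and -1.38 and Cry2 0.97 and 1.15. Arntl was therefore opposite to Dbp, Tef, Nr1d2, Ciart, Per2 and Per3, and on the side of Nfil3.

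At 14 days and 28 days Arntl and Dbp spanned narrower ranges than at 7 days. Arntl at 14 days was 0.22, -0.20, 1.12, 0.27, 0.76 and 0.36, all above the 7 day arrays of scan day 1, with 4 of the 6 below those of scan day 2. At 28 days it was -0.93, -1.28, -1.24, -0.90 and -0.77, below every 14 day aorta. Dbp at 28 days was 1.30, 0.69, 1.16, 1.60 and 2.78, and at 14 days -0.47, 0.28, -1.17, -0.54, -0.85 and -0.22, again with no overlap. Over the 17 arrays, which share scan days, r was taken about the day means. That of Arntl was -0.94 with Tef, -0.91 with Per3 and -0.90 with Nr1d2, and that of Nr1d2 with Ciart 0.93. These 4 were picked from all pairs of clock genes and were not tested. Of the tested marker pairs, Arntl with Dbp had r -0.858 (permutation adjusted p 0.0508) and Per3 with Nr1d1 0.554 (permutation adjusted p 0.118). Neither passed, and Arntl with Dbp did in 10 of 20 other settings. Per3 and Nr1d1 had r of -0.855 within scan day 2 and 0.556 within scan day 1. Within scan day 2 and scan day 1, Arntl and Dbp had r of -0.15 (n = 9) and -0.51 (n = 8). The hour of collection is not given in the sources used here, and its part in these values was not tested.

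**Figure D5:**
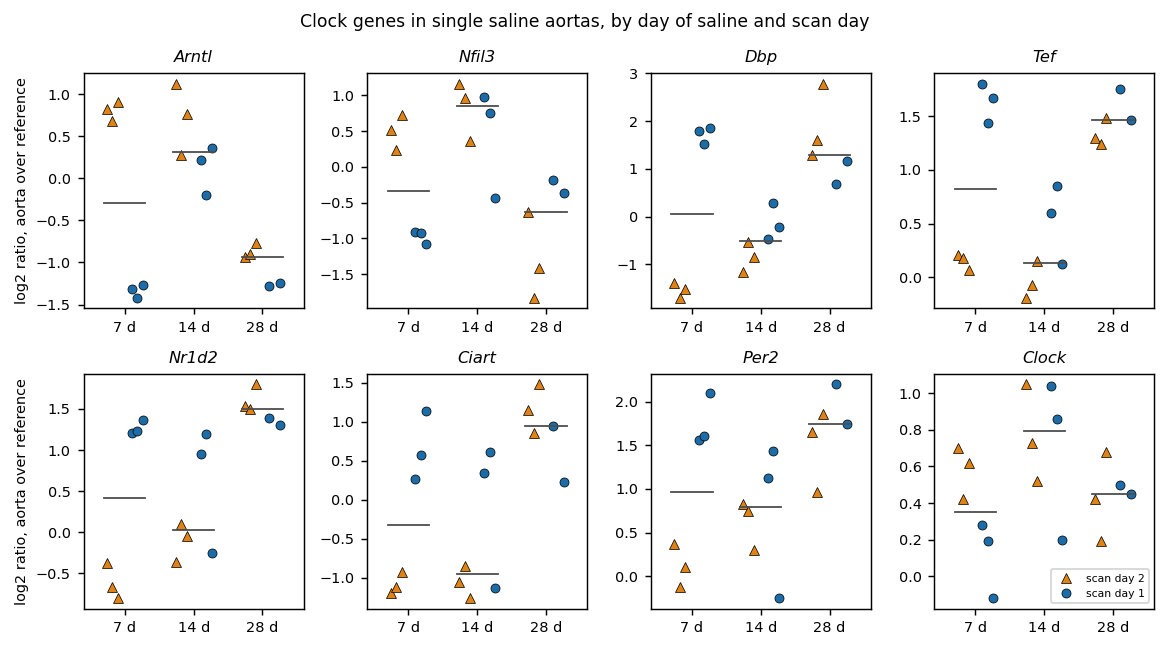
Log2 ratio of 8 clock genes on each of the 17 arrays by day, with triangles for arrays of scan day 2 left of circles for arrays of scan day 1 and lines at the median of each day. At 7 days the triangles and circles of Arntl, Dbp, Tef and Nr1d2 do not overlap, with Arntl at 0.68 to 0.91 and -1.42 to -1.27.

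Day comparisons were also made within each scan day. Within scan day 2 (3 aortas a day), 12 genes (0.0711%) differed between 28 and 7 days in limma, 11 of them higher at 28 days. Ciart was higher by 2.23 and Nr1d2 by 2.22 (limma adjusted p 0.0156 for both), Dbp by 3.43 (adjusted p 0.0299) and Nr1d1 by 1.91, and Arntl was lower, at -1.67 (adjusted p 0.0486). Tef, the matrix proteoglycan Fmod, the Wnt antagonist Sfrp4 and the adhesion molecule Vcam1 were among the others. About the day means of all 17 arrays, other probes of Nr1d1 had r of 0.471 and -0.2 with the one used. Those of Tef had 0.652 to 0.674, and another of Vcam1 had 0.592. Between 28 and 14 days 1 gene (0.00593%), Ciart, differed, by 2.22 (limma adjusted p 0.0334).

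Within scan day 1 (2 aortas at 28 days and 3 at 7 days), 63 genes (0.373%) were called between 28 and 7 days, all lower at 28 days. They included the liver genes Pzp at -2.69 (limma adjusted p 0.00557), Serpinc1 at -4.19 and Apoh at -4.66 (adjusted p 0.016 for both). Within scan day 2 the same 3 genes had differences of 0.96, 0.63 and 0.70, none called. The difference between the scan days in the 28 against 7 day change was called for 835 genes (4.95%), 582 with a higher (3.45%) and 253 with a lower value (1.5%) on scan day 2, and 4851 genes (28.8%) had an unadjusted p under 0.05. Among the 835 were 8 of 22 clock genes, 12 of 20 collagens, 8 of 14 genes of fibroblasts and adventitia, 7 of 15 elastic fibre genes and 10 of 24 matricellular genes. The value for Dbp was 4.23 (SE 0.48, limma adjusted p 0.00919). The number called was 0 to 6151 over other ways of scaling the arrays and 0 to 3022 with 1 array left out, so the count has no firm size. The same difference called 0 genes with limma for 14 against 7 days (1569 genes, 9.30%, at an unadjusted p under 0.05) and 0 for 28 against 14 days (1917 genes, 11.4%).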

How the data were processed

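Values were read from the deposited scanner files of 17 two-colour Agilent arrays, which the authors' software (Agilent Feature Extraction, version 9.5.3.1 in the submitters' processing notes) had written. The deposited mean signals are intensity values per spot, with a local background, and the deposited log ratio is log10 of Cy5 (aorta) over Cy3 (pool), per the labels' dyes, with no dye swap. The deposited series table holds log2 ratios that match the scanner ratio with slopes of 3.321 to 3.328 on its log10 scale and array medians of -0.0675 to 0.109.

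From these, control spots (1639 of 45018) were left out of normalization and tests. Local backgrounds over the array's median by more than 5 median absolute deviations, which lay beside bright specks and reached 57951, were given that median. Signals were then corrected by normexp with an offset of 50 and normalized within arrays by loess, in limma 3.58.1 under R 4.3.3. Spots of a probe were averaged, and the brightest of a gene's probes was used. Of 41174 probes, 24375 were named through RefSeq accessions, 6301 by a current symbol, 2426 by an older one and 8072 by the name in the file.

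Day means were fitted with lmFit and eBayes over 16872 genes, with Benjamini-Hochberg adjustment and calls at 0.05. The fit had 14 residual degrees of freedom and was tested on simulated data. Named genes are the 5 of lowest p in each comparison, up to 4 of each list, the 30 of largest and 5 of smallest SD, the 3 farthest on each array, the clock genes and defining markers. Members and lists were chosen with earlier results of these data known. Marker pairs used 100000 permutations within days (Python 3.11.15, numpy 2.4.6). Correlations between genes and between channels were taken about the day means. A few genes, and 1 marker pair that counts in the adjustment, are not reported here. The contrast between scan days and its difference between days, the aorta channel alone, backgrounds as scanned and leaving out the 3 arrays of lowest correlation were chosen after seeing the data. The number of arrays, not read depth, limits precision.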

Additional observations from a re-analysis of the deposited data

Results flagged for a closer look

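Within a day, 53 values of genes, lists and co-varying sets stood apart from the other aortas, by a gap to the nearest aorta too large a share of the day's range (Dixon's critical value). They came from 558 tests on 186 items. Chance passes about 1 in 20 groups, but many items were chosen because they varied most or stood far out on 1 array, so the number cannot be read against that share. Each value below is the log2 level in that aorta minus the mean of the day's other aortas.

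At 28 days, replicate 4 held 11 of them, among them Spock3 3.60, Cntn1 3.59, Zcchc12 3.41, Slc18a1 3.02, Kcnmb4 2.97, Snap91 2.81, Dnajc6 2.74 and Elavl4 2.34, with 2.28 for the set of 145 genes led by Syt4. The cholesterol synthesis list was 1.11 and a transcript with no gene symbol -0.52 there. Replicate 1 stood apart in liver genes, with 5.01 for Ces1c, 4.90 for Ces3b, 4.57 for F2, 4.22 for Serpina3k, 4.98 for a transcript with no gene symbol, 4.09 for the set of 31 genes led by Fgg and 2.63 for the hepatocyte list. Star was 2.83 in the same aorta. Replicate 3 had Pask at 4.79, a transcript with no gene symbol at 4.70, Fcmr at 3.50, the Marco and B cell set at 3.68, the B cell list at 2.35 and the T cell list at 0.86. Slc34a1 in replicate 2 was 2.07 and Dnajb2 in replicate 5 was -0.55.

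At 14 days, replicate 6 stood apart in lymphocyte genes. Ccl5 was 4.65, Epsti1 4.54, Trbv14 4.39, Fcmr 3.42, the Marco and B cell set 3.54, the T cell list 2.78, the B cell list 2.53 and the MHC class II list 1.86, beside 0.92 for a transcript with no gene symbol and 0.31 for Csnk1d. Replicate 3 had Gp9 at 3.93, a transcript with no gene symbol at 3.79, the platelet list at 1.83 and the acinar pancreas list at 0.22. Replicate 4 had Ccl7 at 4.64 and Sirpb1a at 4.22, and replicate 2 the lymphatic endothelium list at -0.55 and Elovl6 at -1.35.

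At 7 days, replicate 4 stood apart in striated muscle genes, with Myh1 at 3.95, Myh2 at 3.93, Tnni2 at 3.80, Cox6a2 at 2.35 and the skeletal muscle list at 2.30. Star in replicate 3 was 1.51, Alb in replicate 5 was -3.59 and Efl1 in replicate 2 was -0.09.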

How the results depend on the processing

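All 3 day comparisons kept 0 called genes with limma under every scaling, filter, probe choice, weighting, block and covariate tried and with any 1 array left out (range 0 to 0), apart from fits within 1 scan day. Within scan day 1, 36 genes differed among days and 63 between 28 and 7 days. Within scan day 2 these counts were 2 and 12, and 1 gene differed between 28 and 14 days. With the replicate number as a block 0 genes were called (289, 238 and 324 at an unadjusted p under 0.05 for 14 against 7, 28 against 7 and 28 against 14 days). Same-numbered aortas of different days correlated between -0.506 and 0.779 in their deviations, a range that cannot decide whether the numbers mark pairs. Nothing in the labels says that they do. The median within-day SD was 0.216 to 0.435 over other settings and 0.300 to 0.319 with 1 array left out.

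The scan day difference at 7 days, 6 genes, was 3 with backgrounds as scanned or median centring, 12 with the scanner's log ratio or the series table, and 2 to 11 with 1 array left out. Arntl and Dbp were called in all of these. The count of 835 genes whose 28 against 7 day change differed between scan days was 1 with backgrounds as scanned, 6151 with median centring, 0 with scaling between arrays, 162 with the scanner's log ratio or the series table, and 0 to 3022 with 1 array left out. The cause was not tested. The number of marker pairs passing was 5 to 8 with 1 array left out. With the scanner's log ratio or the series table, r was 0.01 for Ucp1 and Acadm and 0.506 for Chgb and Th, and neither pair passed. At an unadjusted p under 0.05, backgrounds as scanned gave 15.1% of genes between 28 and 14 days, against 2.51%.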
